A study of Homo sapiens with 4 samples.

Results

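The genes described here are 46 human genes of mitosis and the spindle, listed by name for what their products do in cell division. Each was read from the probe set (a group of short probes for a transcript) that the platform annotation gives to that gene alone, and where a gene had several, from the brightest on average. This gave values for 45 of the 46 genes, out of 18417 genes read in the same way. CENPA, the histone H3 variant that marks centromeres, shares its probe set with SLC35F6 and is left out of all counts. Of the 45, 43 had a mean over the arrays at or above log2 7.28 (intensity 155), the median of all probe set values that name a gene, against 9262 of the 18417 genes. These 9262 genes are the background in what follows, and CENPE and SPC25 lie below the filter but are counted with the other members.

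The RNA came from MCF12A, an established line of non-tumorigenic human breast epithelial cells grown as monolayers with horse serum, hormones and growth factors. The 4 groups, of 1 array each, were hybridised to Affymetrix Human Gene 1.0 ST arrays: an unexposed culture of the ethanol experiment (control 1), cells in 25 mM ethanol for 1 week, an unexposed culture of the acetaldehyde experiment (control 2), and cells in 2.5 mM acetaldehyde for 1 week. Acetaldehyde is the first product of ethanol oxidation, and the doses of the agents differ. With 1 array per group, a difference between groups has no replicate check and no test. Values are intensities of a probe set, and differences are log2 differences between arrays, where 1 is 2-fold and 0.58 is 1.5-fold.

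The cell line was checked against markers of its type. All 6 measured basal mammary genes (of 10 listed), among them KRT5 and KRT14, were above the filter, as were 8 of 11 luminal genes, whereas 0 of 6 endothelial and 0 of 5 adipocyte genes were, 1 of 10 fibroblast genes (COL1A1) and 2 of 8 blood and immune genes (CD14 and CD68). Over all probe sets the median intensity was 92.2 and 90.2 on the arrays of the ethanol experiment and 113.8 and 113.0 on those of the acetaldehyde experiment. The sorted log2 values differed by a mean of 0.0398 and 0.0268 within the experiments and by 0.270 to 0.285 between them. Levels compared across the experiments therefore also carry a difference in scale. A joint normalization is given beside the members' median and main counts. Values of single genes, role groups and other lists across the experiments are as deposited, unless a joint normalization is named. In a bulk culture, a larger share of cells in mitosis and more of a transcript in each such cell cannot be told apart.

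Mitosis is the stage of the cell cycle in which copied chromosomes are condensed, attached to the spindle and pulled apart. Cyclin B with the kinase CDK1 drives entry, the spindle checkpoint holds the anaphase-promoting complex back until all kinetochores are attached, and that complex then marks securin and the cyclins for destruction. Most of these genes are transcribed late in the cycle, through CCAAT boxes bound by NF-Y and cell cycle homology regions bound by the MuvB complex, which joins B-Myb and FOXM1 to activate them and DREAM to repress them, so that they are kept low together in non-dividing cells.

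The stretches before the start sites of 6 members are shown because these elements are what the genes of the list are known to share. They are the 150 bases before the RefSeq start site (GRCh38.p14), read 5′ to 3′ on the gene's strand. Those of DLGAP5, CDC25B, CCNB2, CDC20 and KIF4A belong to the 5 members with the largest ethanol difference that hold a cell cycle homology region within these bases, and that of KIF20A is added because its ethanol difference was the largest of all members. Capitals mark the cell cycle homology region, spelled TTTGAA (which reads TTCAAA from the other strand) or with the spelling TTCGAA, and the CCAAT box, which reads ATTGG from the other strand, and no marked elements overlap.
KIF20A: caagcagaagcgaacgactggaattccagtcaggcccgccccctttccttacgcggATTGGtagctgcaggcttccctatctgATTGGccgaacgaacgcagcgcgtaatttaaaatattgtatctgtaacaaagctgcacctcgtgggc
DLGAP5: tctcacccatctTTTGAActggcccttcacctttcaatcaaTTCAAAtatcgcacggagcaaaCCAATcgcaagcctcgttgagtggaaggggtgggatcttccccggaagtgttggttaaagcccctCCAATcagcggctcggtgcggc
CDC25B: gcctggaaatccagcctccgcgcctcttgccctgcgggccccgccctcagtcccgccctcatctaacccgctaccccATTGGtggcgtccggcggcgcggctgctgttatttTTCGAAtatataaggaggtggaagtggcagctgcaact
CCNB2: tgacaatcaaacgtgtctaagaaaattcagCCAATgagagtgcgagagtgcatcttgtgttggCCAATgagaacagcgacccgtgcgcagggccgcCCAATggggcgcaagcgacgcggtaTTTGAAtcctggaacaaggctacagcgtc
CDC20: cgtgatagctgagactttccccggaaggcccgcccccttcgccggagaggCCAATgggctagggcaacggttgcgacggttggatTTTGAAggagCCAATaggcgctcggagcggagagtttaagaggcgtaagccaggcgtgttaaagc
KIF4A: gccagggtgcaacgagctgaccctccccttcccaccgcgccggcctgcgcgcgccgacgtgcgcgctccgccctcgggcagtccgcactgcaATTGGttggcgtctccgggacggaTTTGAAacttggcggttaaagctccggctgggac

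The stretches lie at chr5:138178962-138179111, plus strand for KIF20A, chr14:55191586-55191735, minus strand for DLGAP5, chr20:3796160-3796309, plus strand for CDC25B, chr15:59104996-59105145, plus strand for CCNB2, chr1:43358831-43358980, plus strand for CDC20 and chrX:70289954-70290103, plus strand for KIF4A. In CCNB2 CCAAT boxes begin 120, 87 and 54 bases before the start and the homology region follows at 29. In CDC25B the CCAAT box begins at 73 and the homology region at 38, and in KIF4A they begin at 58 and 34. CDC20 has its homology region at 65, between CCAAT boxes at 100 and 55, and DLGAP5 has homology regions at 138 and 109 and CCAAT boxes at 87 and 22. KIF20A has CCAAT boxes at 94 and 67 and none of the 3 homology region spellings in the window. The RefSeq table used here, with windows from 250 bases before to 50 after a start, matched 40 of the 46 genes. Of these, 30 (75.0%) had a homology region match in at least 1 window, against 19.5% of the 27305 genes in the table, 32 (80.0%) had a CCAAT box against 39.7%, and 25 (62.5%) had both against 7.85%. Per window, 16.4% of all 35116 windows held a homology region match and 34.6% a CCAAT box. A match is only a run of letters. The 29 measured members with a homology region match had median differences of 0.40 with ethanol, 0.14 with acetaldehyde and 0.65 between the controls. The 10 members without one had 0.52, -0.02 and 0.91, so they were higher in the first and last of these comparisons and lower with acetaldehyde.

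With ethanol, transcripts of the list were higher than in control 1 almost throughout. Of the 45 members 44 lay above control 1, against 59.8% of all kept genes, with AURKB the exception at -0.04. The median difference was 0.42 (quartiles 0.30 and 0.58), or 1.34-fold, against 0.06 over all kept genes. At least 1.5-fold higher were 11 members (24.4%), against 5.25% of all kept genes, and 0 members were at least 1.5-fold lower, against 3.70%. With each array centred on its median, 8 members were at least 1.5-fold higher and 44 above control 1, while the background turned from 486 higher and 343 lower genes to 380 higher and 422 lower. Joint quantile normalization gave a median of 0.36, with 8 members at least 1.5-fold higher and 44 above control 1. The background then had a median of 0.01, with 355 genes higher and 372 lower. KIF20A alone reached 2-fold. Set against control 2 in place of control 1, which crosses the experiments, the median was -0.33 and 3 members were at least 1.5-fold higher. The matching values of all kept genes were not computed.

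With acetaldehyde the differences were smaller. Of the 45 members 35 lay above control 2, against 51.8% of all kept genes, with a median of 0.11 (quartiles 0.01 and 0.30), or 1.08-fold, against 0.01 over all kept genes. No member was 1.5-fold apart in either direction, where 0.605% of all kept genes were higher and 0.875% lower by that much. After joint quantile normalization 30 members lay above control 2, against 44.8% of all kept genes, and the median was 0.09 against -0.02.

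The median gap between the unexposed cultures was wider than that of either exposure from its own control. Control 2 lay above control 1 for 37 of the 45 members, against 52.4% of all kept genes, with a median of 0.73 (quartiles 0.15 and 1.00), or 1.66-fold, against 0.03 over all kept genes. At least 1.5-fold higher in control 2 were 26 members (57.8%), against 13.2% of all kept genes, and 0 were lower by that much, against 12.9%. After joint quantile normalization the median was 0.75 and the count again 26. Control 1 is the reference here and in the ethanol comparison, and anything peculiar to its array would appear in both.

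**Figure D1:**
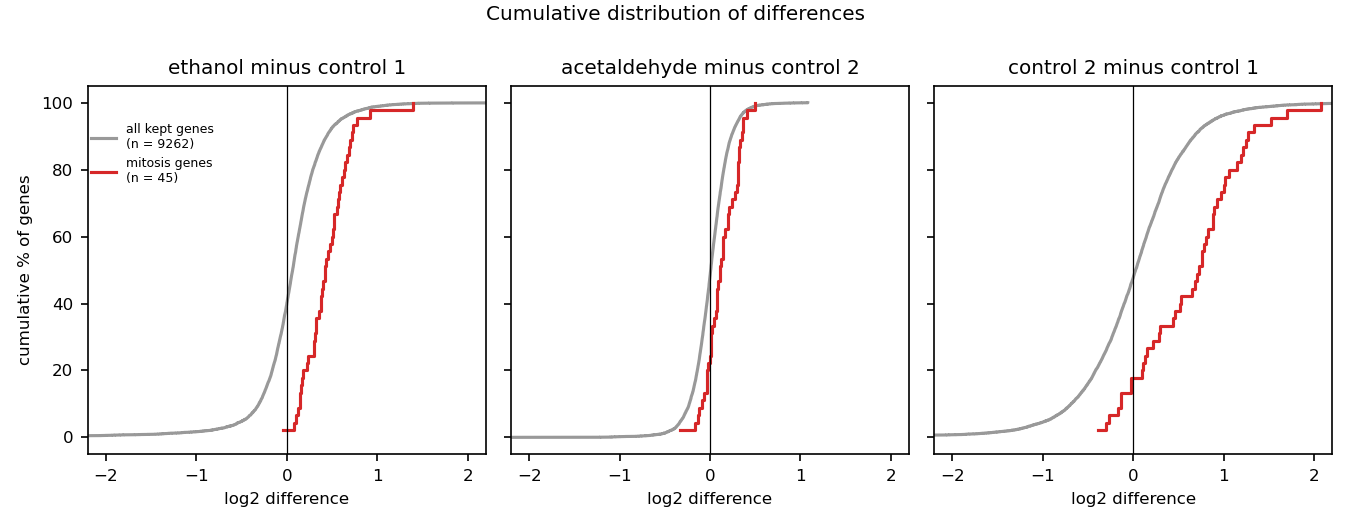
Cumulative percentage of genes (vertical axis) at or below each log2 difference (horizontal axis) for the 45 mitosis and spindle genes (red) and the 9262 kept genes (grey) in the 3 comparisons, 1 array against 1 in each. The red line lies right of the grey line at the median in each panel, by most between the controls (0.73 against 0.03) and by least with acetaldehyde (0.11 against 0.01).

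Control 1 was the lowest of the 4 arrays for 36 members (80.0%), against 31.9% of all kept genes, and the acetaldehyde array was the highest for 27. For 22 members the order was control 1, ethanol, control 2 and acetaldehyde from low to high. Both arrays of the acetaldehyde experiment lay above both of the ethanol experiment for 30 members (66.7%), against 35.2% of all kept genes. The ethanol array lay between the controls for 29 members and above both for 15 (33.3%), a share near the 37.1% of all kept genes. The acetaldehyde array lay above both controls for 32 (71.1%), against 30.1% of all kept genes. No share of all kept genes was computed for the counts of 27, 22 and 29. After joint quantile normalization control 1 was lowest for 34 members, the acetaldehyde array highest for 21 and the ethanol array between the controls for 28. Both arrays of the acetaldehyde experiment then lay above both of the ethanol experiment for 29. For these normalized counts the matching shares of all kept genes were not computed.

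**Figure D2:**
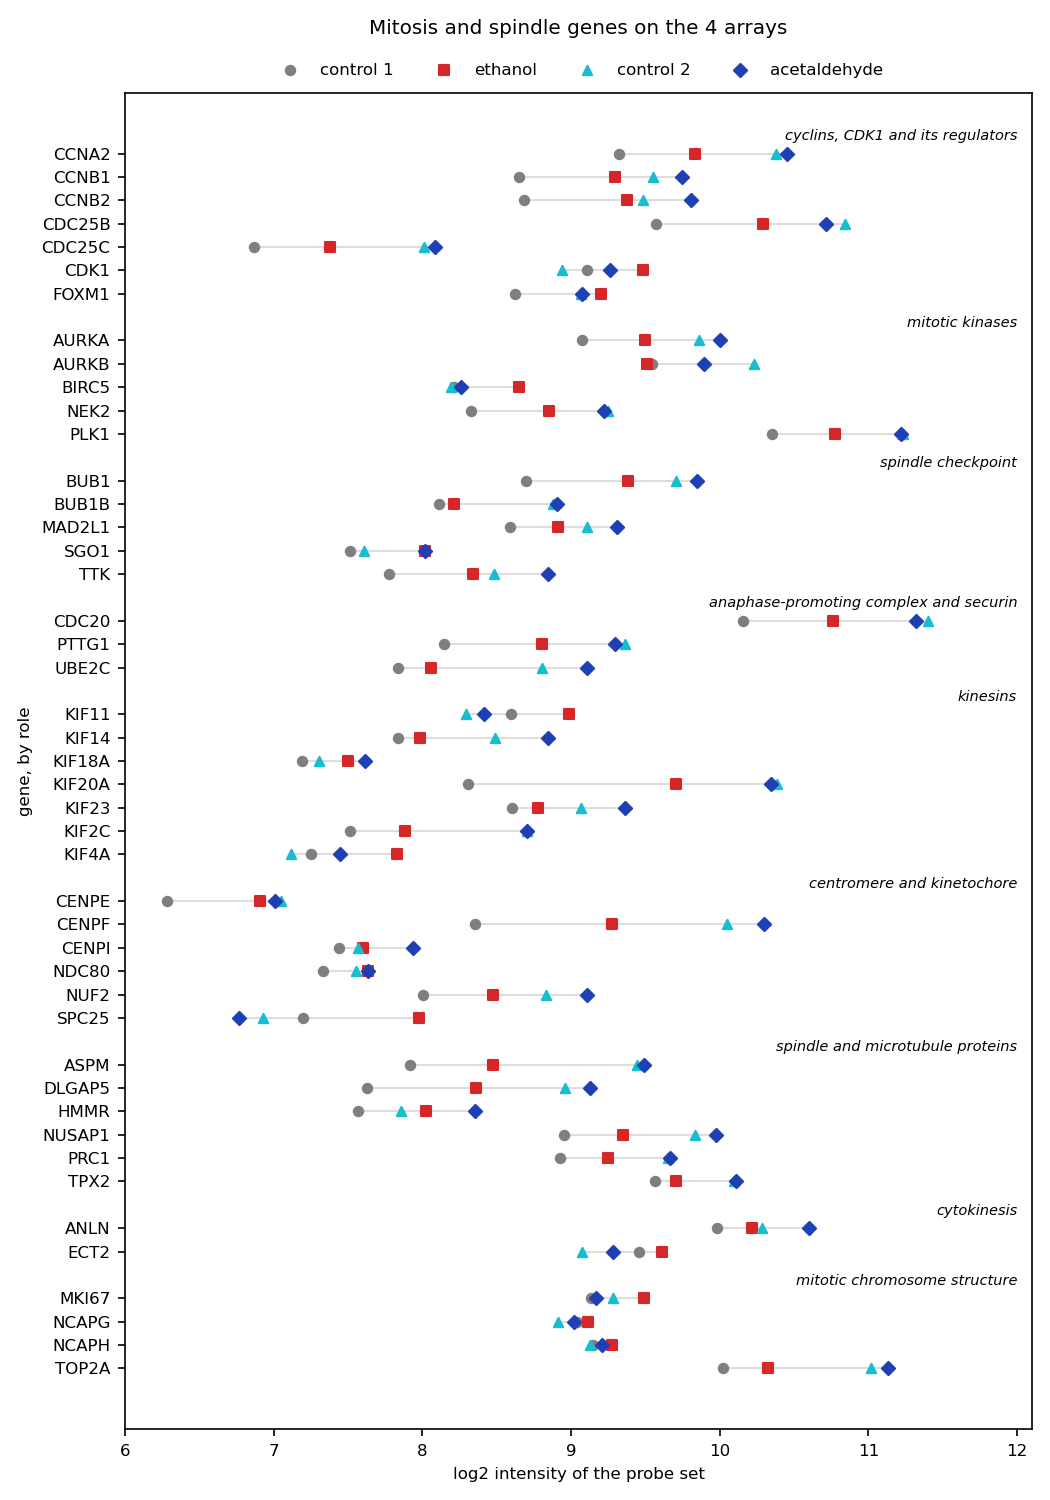
log2 intensity (horizontal axis) of the 45 mitosis and spindle genes (vertical axis, grouped by role) on the 4 arrays, 1 symbol per array; grey lines span lowest to highest. Control 1 (grey circles) is the leftmost symbol for 36 genes, and KIF20A and CENPF have the widest spans.

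Cyclins, CDK1 and its regulators were all above control 1 with ethanol. Of 7 genes, 3 were at least 1.5-fold above control 1, with a median of 0.58, and 5 were at least 1.5-fold higher in control 2 than in control 1. CDC25B, a phosphatase that activates cyclin-CDK complexes, read 761 in control 1 against 1254 with ethanol, and 1839 in control 2 against 1680 with acetaldehyde. Its ethanol value was 1.65-fold above control 1 but below both arrays of the acetaldehyde experiment. CCNB2, a B-type cyclin, read 410 in control 1 against 664 with ethanol, and 716 in control 2 against 895 with acetaldehyde, so that both exposed arrays lay above their controls, by 0.70 and 0.32. CCNB1, the B-type cyclin that with CDK1 starts mitosis, differed by 0.65 with ethanol and 0.20 with acetaldehyde, and CCNA2, the cyclin of S phase and early mitosis, by 0.52 and 0.07. CDC25C, the phosphatase that removes the inhibitory phosphates from CDK1, was at 0.51 and 0.07. CDK1 itself was the exception in this group between the controls, at -0.16, while it was 0.38 above control 1 with ethanol and 0.32 above control 2 with acetaldehyde. FOXM1, the transcription factor of this gene set, was at 0.58 with ethanol, just inside 1.5-fold, and 0.01 with acetaldehyde.

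The mitotic kinases and survivin had a median of 0.42 with ethanol and -0.02 with acetaldehyde over 5 genes, and 0 of them were 1.5-fold above their own control. NEK2, a kinase that separates centrosomes, read 320 in control 1 against 462 with ethanol, and 609 in control 2 against 596 with acetaldehyde. PLK1, a kinase of entry, spindle and division, differed by 0.42 with ethanol and -0.02 with acetaldehyde, and AURKA, the centrosomal Aurora kinase, by 0.42 and 0.14. AURKB, the Aurora kinase of the chromosomal passenger complex, read 748 in control 1 against 729 with ethanol, and 1200 in control 2 against 952 with acetaldehyde. It is the only member below its own control with both exposures, at -0.04 and -0.33. BIRC5, survivin, a partner of AURKB in that complex, was at 0.44 and 0.07 and differed by -0.02 between the controls, where NEK2, PLK1, AURKA and AURKB differed by 0.93, 0.88, 0.79 and 0.68.

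Spindle checkpoint genes were above the own control with both exposures for all 5 members, with medians of 0.50 and 0.20. BUB1, a checkpoint kinase at kinetochores, read 415 in control 1 against 667 with ethanol, and 836 in control 2 against 921 with acetaldehyde. TTK, the kinase MPS1 that starts checkpoint signalling, read 219 in control 1 against 324 with ethanol, and 357 in control 2 against 460 with acetaldehyde, at 0.57 and 0.36 above the controls. SGO1, shugoshin, which protects cohesion at centromeres, read 183 in control 1 against 259 with ethanol, and 195 in control 2 against 259 with acetaldehyde. For SGO1 the controls lay 0.10 apart and both exposed arrays above both controls, unlike BUB1 and TTK, whose ethanol values fell short of control 2. MAD2L1, which binds CDC20 when kinetochores are unattached, differed by 0.32 and 0.20, and BUB1B, the checkpoint protein BUBR1, by 0.10 and 0.03. After joint quantile normalization the acetaldehyde difference of BUB1B was -0.02.

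The anaphase-promoting complex was represented by its activator CDC20, its ubiquitin-conjugating enzyme UBE2C and its substrate securin, PTTG1. CDC20 read 1141 in control 1 against 1736 with ethanol, and 2708 in control 2 against 2555 with acetaldehyde. PTTG1 read 283 in control 1 against 448 with ethanol, and 657 in control 2 against 630 with acetaldehyde. Both were over 1.5-fold above control 1 with ethanol, at 0.61 and 0.66, slightly below control 2 with acetaldehyde, at -0.08 and -0.06, and over 2-fold higher in control 2 than in control 1. UBE2C differed by 0.23 with ethanol, 0.31 with acetaldehyde and 0.97 between the controls. PTTG1 has a near-identical copy, PTTG2, whose RNA the probes could also read.

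Kinesins, the motors that move and bundle spindle microtubules, had medians of 0.37 with ethanol, 0.30 with acetaldehyde and 0.46 between the controls over 7 genes. KIF20A, which carries the chromosomal passenger complex to the midzone for cytokinesis, read 317 in control 1 against 835 with ethanol, and 1335 in control 2 against 1301 with acetaldehyde. It was 2.64-fold higher with ethanol and 4.21-fold higher in control 2 than in control 1, while the arrays of the acetaldehyde experiment lay 0.04 apart. KIF14, a motor of cytokinesis, read 229 in control 1 against 253 with ethanol, and 359 in control 2 against 459 with acetaldehyde, and here the acetaldehyde difference of 0.36 was above the ethanol difference of 0.14. KIF4A, a motor that binds chromosomes and organises the midzone, read 152 in control 1 against 227 with ethanol, and 139 in control 2 against 175 with acetaldehyde, with both exposed arrays above both controls as deposited. Joint quantile normalization put KIF4A at -0.36 between the controls and 0.36 with acetaldehyde, which left the acetaldehyde array about level with control 1. KIF11, the motor that separates the spindle poles, differed by 0.39 with ethanol and -0.30 between the controls. KIF18A, which shortens kinetochore microtubules, was at 0.31 with each exposure, KIF23, a subunit of centralspindlin, at 0.17 and 0.30, and KIF2C, a microtubule depolymerase, at 0.37 with ethanol and 0.00 with acetaldehyde but 1.19 between the controls. A further probe set names both KIF4A and its copy KIF4B.

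Of the centromere and kinetochore genes, 6 of 7 were measured alone, and 3 of these were at least 1.5-fold above control 1 with ethanol. CENPF, a kinetochore protein that accumulates towards mitosis, read 327 in control 1 against 619 with ethanol, and 1059 in control 2 against 1258 with acetaldehyde. Its arrays stand apart by experiment, with a difference of 0.92 within the ethanol experiment, 0.25 within the acetaldehyde experiment and 1.70 between the controls. SPC25, a subunit of the NDC80 complex that grips microtubules, read 147 in control 1 against 252 with ethanol, and 122 in control 2 against 109 with acetaldehyde. Only the ethanol value, 0.78 above control 1, lay over the filter intensity of 155. CENPE, the kinetochore motor, also lay under the filter on all 4 arrays, between 77.9 and 132, and differed by 0.63 with ethanol and -0.04 with acetaldehyde. CENPI, of the inner kinetochore, read 173 in control 1 against 194 with ethanol, and 190.0 in control 2 against 245 with acetaldehyde, so its acetaldehyde difference was the larger, at 0.36 against 0.16. NUF2 and NDC80, the partners of SPC25 in the NDC80 complex, differed by 0.47 and 0.30 with ethanol and 0.28 and 0.08 with acetaldehyde. Between the controls NUF2 was at 0.83, NDC80 at 0.22 and SPC25 at -0.27, so transcripts of a single complex did not differ alike there.

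Spindle and microtubule proteins had medians of 0.43 with ethanol, 0.10 with acetaldehyde and 0.80 between the controls, with all 6 above the reference in each comparison. DLGAP5, which stabilises microtubules at kinetochores, read 198 in control 1 against 329 with ethanol, and 498 in control 2 against 558 with acetaldehyde. ASPM, a protein of the spindle poles, read 242 in control 1 against 356 with ethanol, and 695 in control 2 against 718 with acetaldehyde, which puts both arrays of the acetaldehyde experiment well above both of the ethanol experiment. HMMR, a spindle protein also known as a hyaluronan receptor, read 190 in control 1 against 260 with ethanol, and 232 in control 2 against 327 with acetaldehyde. HMMR had the largest acetaldehyde difference of the 45 members, 0.50, near its ethanol difference of 0.45, and both exposed arrays lay above both controls. NUSAP1, which bundles microtubules near chromosomes, differed by 0.40 and 0.14, PRC1, which crosslinks the midzone, by 0.32 and 0.01, and TPX2, the activator of AURKA, by 0.15 and 0.02. After joint quantile normalization the acetaldehyde differences of PRC1 and TPX2 were -0.03 and -0.02.

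Cytokinesis and chromosome structure were the role groups with the smallest medians with ethanol, 0.19 over 2 genes and 0.22 over 4. The cytokinesis group held only ANLN and ECT2, while KIF20A (1.40 with ethanol), KIF14 (0.14) and KIF23 (0.17) were counted with the kinesins. ANLN, anillin, the scaffold of the contractile ring, read 1012 in control 1 against 1191 with ethanol, and 1246 in control 2 against 1549 with acetaldehyde. ECT2, the exchange factor that activates RhoA for the ring, differed by 0.15 with ethanol and 0.21 with acetaldehyde and was lower in control 2 than in control 1, at -0.39. MKI67, the coat protein of mitotic chromosomes used as the Ki-67 proliferation marker, read 561 in control 1 against 718 with ethanol, and 624 in control 2 against 574 with acetaldehyde. MKI67 was thus highest with ethanol, and control 2 lay 0.15 above control 1. TOP2A, the topoisomerase that untangles sister chromatids, differed by 0.30 with ethanol, 0.11 with acetaldehyde and 1.00 between the controls. The condensin I subunits NCAPG and NCAPH differed by 0.08 and 0.13 with ethanol, 0.11 and 0.08 with acetaldehyde, and -0.13 and -0.02 between the controls.

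**Figure D3:**
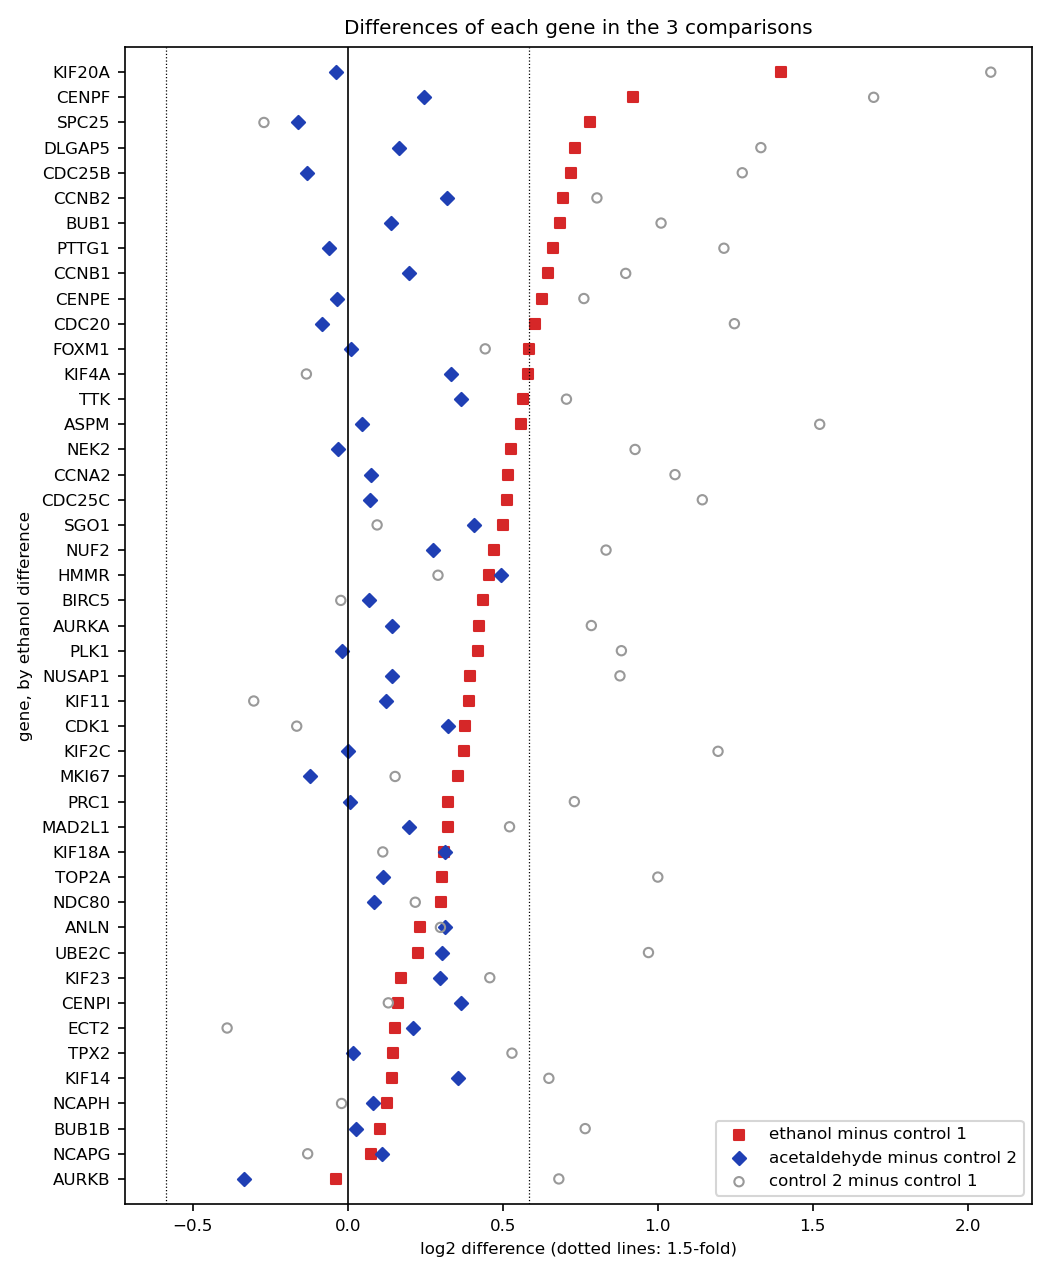
log2 differences (horizontal axis) of the 45 mitosis and spindle genes (vertical axis, ordered by the ethanol difference) for ethanol minus control 1 (red squares), acetaldehyde minus control 2 (blue diamonds) and control 2 minus control 1 (open circles), 1 array against 1 in each, with dotted lines at 1.5-fold. The red squares reach 1.40 for KIF20A, no blue diamond passes a dotted line, and 26 open circles lie at or beyond the right one.

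Exposures were then set against each other. The ethanol difference was above the acetaldehyde difference for 36 of 45 members, against 5373 of 9262 kept genes. For 7 members the gap was at least 0.58, with KIF20A first (1.40 and -0.04, a gap of 1.44), followed by SPC25 (0.94), CDC25B (0.85) and PTTG1 (0.72). The share of all kept genes with such a gap was not computed. KIF14, CENPI, KIF23, ANLN, UBE2C, ECT2, HMMR and NCAPG were further above their own control with acetaldehyde, by at most 0.21, and KIF18A had equal differences at 2 decimals. Across the 45 members both sets of differences, which have no array in common, gave r = -0.11 and rho = -0.16, against r = 0.39 and rho = 0.33 across all kept genes, both as descriptions across genes that are not independent. Above the own control with both exposures were 35 members (77.8%), against 36.5% of all kept genes.

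A fit over all 4 arrays in limma took either exposure against its own control, with the experiment as a block and 1 residual degree of freedom. It reads the gap between the responses as error, although ethanol and acetaldehyde are not replicates of a treatment. After Benjamini-Hochberg adjustment in limma 0 of 43 fitted members passed 0.05, as did 0.0% of all kept genes, and the lowest adjusted p of a member was 0.453. At an unadjusted p under 0.05 stood 11 members (25.6%), all higher with exposure, against 10.5% of all kept genes. They were CCNB1, CCNB2, CDK1, CENPF, DLGAP5, HMMR, KIF18A, KIF4A, NUF2, SGO1 and TTK. HMMR had a mean difference of 0.48 ± 0.11 (SE) and SGO1 of 0.46 ± 0.12, whereas KIF20A, with unequal responses, had 0.68 ± 0.33.

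Further genes of the pathway were read from lists drawn up by function. Of 68 other mitosis genes 61 were above control 1 with ethanol, against 59.8% of all kept genes, with a median of 0.27 against 0.06. At least 1.5-fold higher were 6 of the 68, not far from the 5.25% of all kept genes, and 0 were lower by that much, against 3.70%. SPAG5, a spindle protein (0.74), SKA3, of the kinetochore SKA complex (0.68), PBK, a mitotic kinase (0.64), and CIT, citron kinase of cytokinesis (0.60), had the largest differences among those past the filter. With acetaldehyde 46 of the 68 were above control 2 (median 0.08), against 51.8% of all kept genes. Between the controls 47 were higher in control 2 (median 0.36), against 52.4%. Of the 68, 21 were at least 1.5-fold higher in control 2, against 13.2%, and 5 lower by that much, against 12.9%. The core subunits of the anaphase-promoting complex had medians of 0.08, -0.01 and -0.20 over 15 genes in the same order of comparisons. CDC27 was the furthest of these with ethanol, at 0.41, followed by CDC16 (0.23), CDC23 and ANAPC2 (both -0.21). Cohesin and its regulators had medians of 0.12, 0.11 and -0.16 over 11 genes, with PDS5B at 0.31, ESCO2 at 0.26, PDS5A at 0.21 and SMC1A at -0.15 with ethanol. MuvB, DREAM and mitotic transcription factors had medians of 0.03, 0.08 and -0.07 over 19 genes, with MYBL1 at 0.47, NFYC at -0.25, E2F1 at 0.24 and LIN52 at 0.24 with ethanol.

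Genes of the preceding stages of the cycle were set beside the mitotic genes. Of all kept genes, 59.8% were above control 1 with ethanol and 51.8% above control 2 with acetaldehyde. Between the controls 52.4% were higher in control 2. In the same order, 5.25%, 0.605% and 13.2% were at least 1.5-fold higher, and 3.70%, 0.875% and 12.9% lower by that much. The lists here also count genes below the filter. The DNA replication and G1/S list was above control 1 with ethanol for 34 of 40 genes (median 0.21), with GMNN, the inhibitor of licensing, at 0.69, CCNE1, cyclin E1, at 0.65, RFC5, a clamp loader subunit, at 0.57 and CDC6, a licensing factor, at 0.51. With acetaldehyde 28 of 40 were higher (median 0.13). Between the controls 16 of 40 were higher in control 2, with a median of -0.11, against 0.73 for the mitotic members, and of the named genes CDC6 was at -0.86, GMNN at -0.41, RFC5 at 0.08 and CCNE1 at 0.26. The difference between the lists was not tested. Replication-dependent histones, which are near-identical copies that probes can mix up, were lower with ethanol for 12 of 57 by at least 1.5-fold and higher for 0 (median -0.34), with H4C8 at -1.41, H3C12 at -1.15, H2BC21 at -0.90 and H2BC3 at -0.74. With acetaldehyde 0 of 57 were 1.5-fold apart in either direction (median 0.02). Between the controls 30 of 57 were at least 1.5-fold lower in control 2 and 3 higher (median -0.61), with H4C8 at -1.89, H3C12 at -1.51 and H2BC3 at -2.65 but H2BC21 at 1.57. Of the cell cycle inhibitors 1 of 10 was above control 1 with ethanol (median -0.21) and 3 of 10 above control 2 with acetaldehyde (median -0.11). BTG1, an antiproliferative protein, was at -0.76, the CDK inhibitor CDKN1B (p27) at -0.58, CDKN2D at -0.39 and CDKN1C at -0.25 with ethanol. Between the controls 4 of 10 were higher in control 2 (median -0.16), 1 of them and 1 of the lower ones by at least 1.5-fold, with BTG1 at -0.71, CDKN1B at -0.54, CDKN2D at -0.35 and CDKN1C at -0.06.

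**Figure D4:**
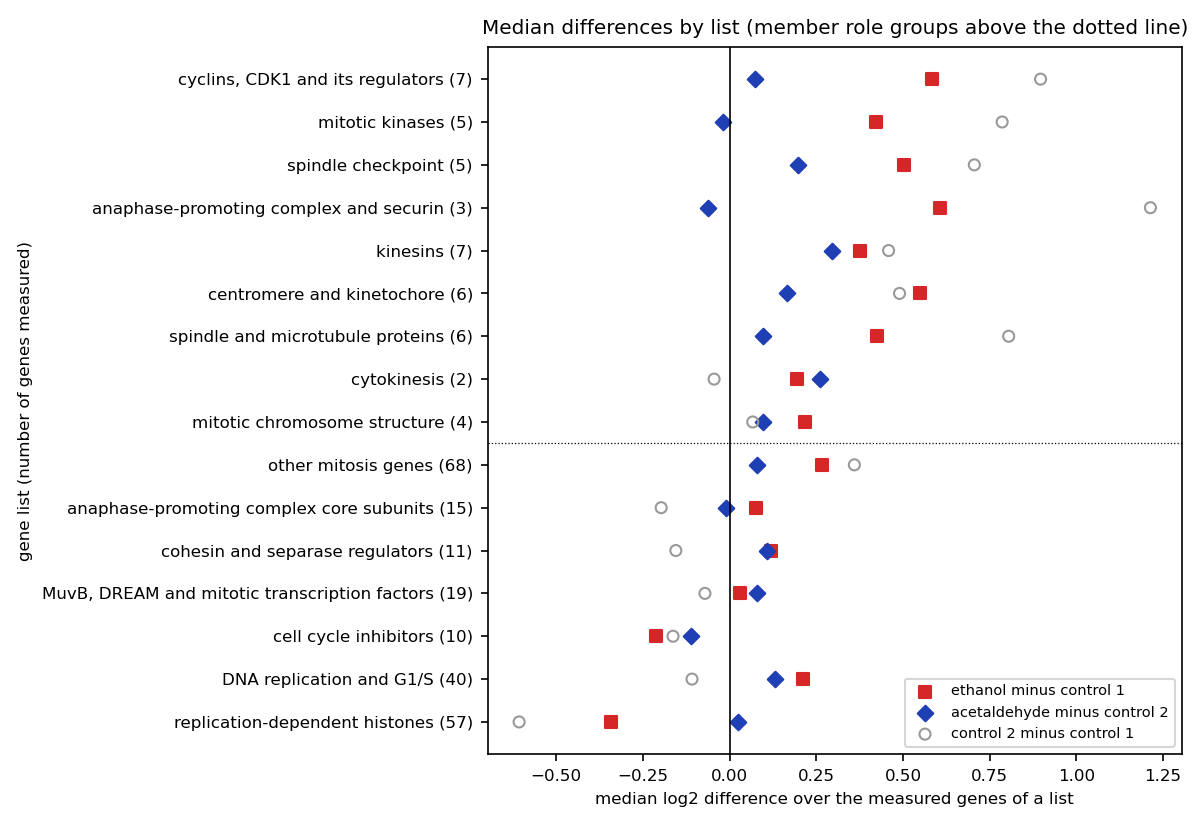
Median log2 difference (horizontal axis) over the measured genes of each list (vertical axis, number of genes in brackets) for ethanol minus control 1 (red squares), acetaldehyde minus control 2 (blue diamonds) and control 2 minus control 1 (open circles). Role groups of the mitosis and spindle genes stand above the dotted line; between the controls the other mitosis genes lie at 0.36 and the G1/S list at -0.11.

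Squamous differentiation transcripts, made as epithelial cells mature and stop dividing, had medians of the opposite sign. Their summed intensity over 31 genes was 57672 in control 1 against 7705 with ethanol, and 27358 in control 2 against 15382 with acetaldehyde, so control 1, lowest for 36 mitotic genes, was highest there, while the ethanol array was lowest. The list's medians were -2.51 with ethanol, -0.35 with acetaldehyde and -1.43 between the controls, and 20 of the 31 genes were above the filter. Luminal genes also had negative medians in the 3 comparisons, at -0.16, -0.41 and -0.25 in the same order. The basal, fibroblast, endothelial, blood and immune and adipocyte lists had negative medians with both exposures and positive ones between the controls. Over the other marker lists the summed intensity ran from 26436 to 31898 for basal, 7473 to 13706 for luminal, 585 to 1039 for fibroblast, 249 to 349 for endothelial, 2031 to 2484 for blood and immune and 295 to 415 for adipocyte genes. Their part in the differences of the mitotic genes was not tested.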

How the data were processed

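RNA of 4 MCF12A cultures, 1 per group, was measured on 4 Affymetrix arrays. The deposited values are linear intensities, from 3.13 to 22858 over 33297 probe sets. RMA is named in the submitters' processing notes, and its software version is not given in the sources used here. Log2 values had been assumed in planning, and logarithms were computed without an offset before any comparison. Groups came from the labels. The number of arrays limits the precision, and arrays carry no read depth.

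Platform annotation gave 1 symbol for 19460 probe sets, several for 1754, and 12083 are unnamed here; 19429 of the 19460 gene identifiers matched the RefSeq table of GRCh38.p14. The members, lists, comparisons and thresholds were chosen with earlier results of these data known. A gene was kept if its mean over the 4 arrays reached the filter. Values on all 4 arrays are given for the member of each role group with the largest ethanol difference and for the 6 members with the largest difference in each comparison, and up to 4 genes of each further list are named by ethanol difference. The KIF20A promoter, the 4 values of KIF4A and the range of CENPE fall outside this rule and were chosen after their values were seen. Columns of other samples used: 0.

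Matched comparisons have no test. The fit was made in limma 3.58.1 (lmFit, eBayes, R 4.3.3), adjusting by Benjamini-Hochberg at 0.05 over 9262 genes, and was tested on simulated data. There it called 39 of 100 genes with a true log2 difference of 1, so many 2-fold changes were missed, and 92 of 100 with 3. Of 9062 unchanged genes it called 6. The share found depends on how many changes were planted and how large, so it need not hold for the measured arrays. Alternatives were joint quantile normalization, centring, the mean of probe sets, the filter, an offset of 16, the other control, 2-fold and no block. Counts and figures used Python 3.11.15 with pandas 2.3.3 and matplotlib 3.10.9.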

Additional observations from a re-analysis of the deposited data

Results flagged for a closer look

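For 6 members at least 1.5-fold above control 1 with ethanol, the acetaldehyde array lay below control 2, so the exposures pointed in opposite directions. The ethanol difference exceeded the acetaldehyde difference by 1.44 for KIF20A (1.40 and -0.04), 0.94 for SPC25 (0.78 and -0.16), 0.85 for CDC25B (0.72 and -0.13), 0.72 for PTTG1 (0.66 and -0.06), 0.69 for CDC20 (0.61 and -0.08) and 0.66 for CENPE (0.63 and -0.04). With 1 array per group these gaps were not tested, and the acetaldehyde differences of all 6 are small. How many of all kept genes show such opposite signs was not computed.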

How the results depend on the processing

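The choice of control decided most. Against control 2, the ethanol median turned to -0.33, 3 members were at least 1.5-fold higher, and the members over 1.5-fold turned to -0.25 (CCNB1), -0.11 (CCNB2), -0.64 (CDC20), -0.55 (CDC25B), -0.33 (BUB1), -0.68 (KIF20A), -0.14 (CENPE), -0.78 (CENPF), -0.60 (DLGAP5) and -0.55 (PTTG1), with SPC25 the exception. Against control 1, the acetaldehyde median was 0.79 with 29 members at least 1.5-fold higher. These settings cross the experiments and their scales, and the cause was not tested. At 2-fold, 1 member was higher with ethanol and 12 between the controls, as a stricter threshold must give fewer. No share or median of all kept genes was computed for the crossed settings, nor a share at 2-fold. The quantile, centring, probe set, offset and filter settings kept the 3 medians within 0.1 and the counts within 1.5 times. For single members, joint quantile normalization moved the difference between the controls by at least 0.1 for 9 of the 45. Among them SPC25 went from -0.27 to -0.52, CENPE from 0.76 to 0.47 and SGO1 from 0.10 to -0.08. In limma 0 members passed under each setting, with 0 to 12 at an unadjusted p under 0.05 and a lowest adjusted p of 0.436 to 1.00. Without the experiment as a block, which pairs each exposure with its own control, 0 members stood at an unadjusted p under 0.05, against 11 with it. Of all 9262 kept genes, 77 stood there in limma without the block and 973 with it, so the fall was general. The settings with 12 members there had 1949 of 18417 genes (no filter) and 966 of 9272 (offset). With 1 array per group, no replicate could be left out. CENPE and SPC25 are dim, and no background signal is given to bound them.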

Other observations

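The probe set that names CENPA and SLC35F6 read 395 in control 1 against 489 with ethanol, and 565 in control 2 against 632 with acetaldehyde, and which of the genes it reads cannot be told apart. The probe set of KIF4A and KIF4B read 82.9, 89.1, 66.9 and 110 in the same order, each below intensity 155. A second probe set of BIRC5 read 41.2, 38.6, 43.5 and 61.7, also below it, and differed by -0.09 with ethanol and 0.50 with acetaldehyde, where the brighter one differed by 0.44 and 0.07.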
